A study of Mus musculus with 21 samples.

Results

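Expression of 9 genes of insulin and insulin-like growth factor (IGF) signalling was followed in mouse pancreatic islets: the ligand Igf1, the receptors Insr and Igf1r, the binding protein Igfbp5, the receptor substrates Irs1 and Irs2, the kinases Akt1 and Akt2, and the mRNA-binding protein Igf2bp2. The genes were chosen by symbol, and each symbol matched 1 of the 55536 gene identifiers in the count files. All 9 were among the 27229 genes that passed the filter of at least 10 reads over all samples.

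Islets came from 3 groups of CBA males, fed regular diet (RD), a high-fat diet (HFD), or this HFD with 0.8 mg of O304 mixed into each g (HFD-O304). O304 is a small molecule that activates AMPK, a kinase that senses cellular energy. Diets began at 10 weeks of age and islets were isolated at 20 weeks. The methods give 9 weeks of diet and the results text gives 10 weeks. Each group had 7 samples of total RNA from 150 islets, drawn from the pooled islets of 5 mice, so that differences between single mice are not seen. RD mice received neither HFD nor O304, HFD mice received no O304, and no group received O304 on regular diet, so that an effect of O304 without HFD cannot be read from these samples. The comparisons address how these genes differ with HFD, and with O304 within HFD feeding.

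Insulin and IGF1 bind related receptor tyrosine kinases, and the activated receptor phosphorylates insulin receptor substrates that recruit PI3-kinase and thereby activate AKT. IGF binding proteins hold IGFs outside the cell and set how much ligand reaches the receptor. In β-cells this pathway is known for roles in growth, survival and secretory function, with IRS2 regarded as the substrate on which β-cell mass depends most.

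Read pairs on genes ranged from 13809266 to 48922569 per sample, with HFD-O304 replicate 2 the shallowest. HFD-O304 replicate 1 is HFD-O304 by its title but carries an HFD diet tag, and HFD replicate 3 is HF by its title and HFD by its diet tag. The calls among the 9 genes without HFD-O304 replicate 1 were 3 against HFD and 0 against RD islets, as with it, and each of the 9 is also given without it in HFD-O304 vs HFD islets, as are list and marker genes whose call was lost. All 8 β-cell markers, all 4 α-cell markers and all 4 δ- and PP-cell markers were detected in every sample, and acinar markers summed to 679.8 to 251354 normalized read counts per sample. Replicates 1 to 4 and replicates 5 to 7 have library identifiers from different number ranges, called library sets here. No difference of any of the 9 genes between groups was called different between the library sets (interaction test in edgeR, lowest adjusted p = 0.695).

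Compared with RD islets, HFD islets had less Igf1r and Igf2bp2 RNA, both genes were higher in HFD-O304 than in HFD islets, and Igfbp5 was lower in HFD-O304 than in HFD islets. None of the 9 genes was called different between HFD-O304 and RD islets. A gene was called at an adjusted p under 0.01 by the quasi-likelihood test of edgeR, with Benjamini-Hochberg adjustment over all 27229 genes. HFD vs RD called 2 of the 9, both lower, against 3.54% of all genes tested (2.00% higher, 1.54% lower). HFD-O304 vs RD called 0 of 9, against 1.31% of all genes (0.404% higher, 0.903% lower), while 3 of the 9 had an unadjusted p under 0.05 and DESeq2 called 1, Irs2. HFD-O304 vs HFD called 3 of 9, against 11.9% of all genes (5.08% higher, 6.79% lower). The sample ranges of none of the 9 genes were apart between HFD and RD (all genes tested: 0.665% higher, 0.687% lower) or between HFD-O304 and RD islets (0.694% higher, 0.870% lower). The median log2 fold change of the 9 genes was -0.14, 0.02 and 0.16 in these comparisons, beside -0.004, 0.008 and 0.03 over all genes tested. HFD-O304 vs HFD and HFD vs RD share the HFD samples, and HFD-O304 vs RD shares samples with both.

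**Figure D1:**
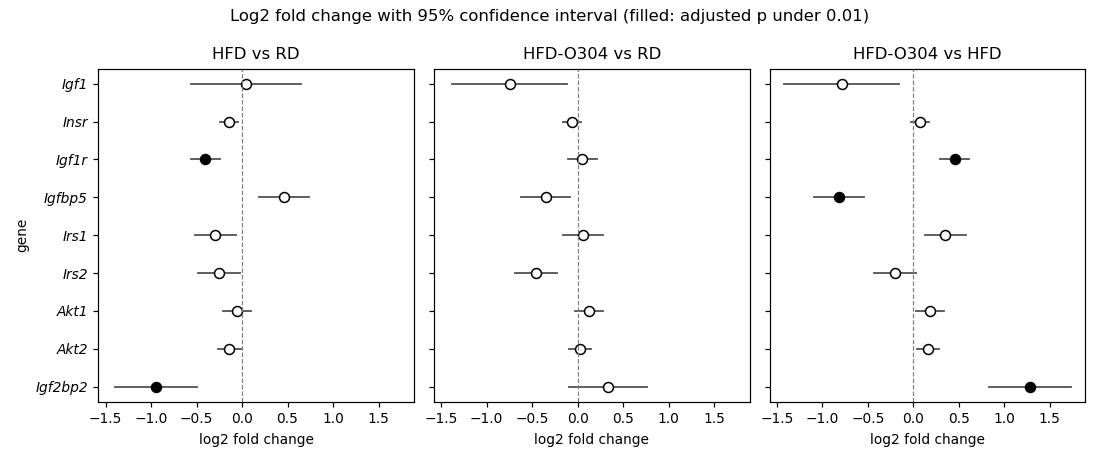
Log2 fold change of each gene (x axis) with its 95% confidence interval from the edgeR fit, in the 3 comparisons (panels). Filled points have an adjusted p under 0.01: Igf1r and Igf2bp2 lie left of 0 in HFD vs RD and right of 0 in HFD-O304 vs HFD, and Igfbp5 lies left of 0 in HFD-O304 vs HFD.

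Per kilobase of exon, Akt1 had the highest level of the 9 genes in every group and Irs1, Igf2bp2 and Igf1 the lowest, in that order. In RD islets the mean level was 1164 ± 61.9 normalized counts per kb (SD, n = 7) for Akt1, 405 ± 40.5 for Igfbp5, 335 ± 21.3 for Akt2 and 257 ± 48.0 for Irs2. Insr at 188 ± 7.53 and Igf1r at 176 ± 22.4 followed, then Irs1 at 64.4 ± 9.53, Igf2bp2 at 12.1 ± 3.66 and Igf1 at 2.66 ± 1.11. Neighbours from Igfbp5 to Igf1r in this order overlapped in their ranges, whereas Akt1, Irs1, Igf2bp2 and Igf1 were each apart from their neighbours. In HFD islets the order was the same and neighbouring ranges were apart, with the exception of Igf2bp2 at 6.31 ± 2.65 and Igf1 at 2.77 ± 0.97 per kb. In HFD-O304 islets Akt2 at 340.1 ± 15.9 per kb stood above Igfbp5 at 316 ± 70.7, and Igf1r at 182 ± 12.5 above Insr at 179 ± 7.85, but the ranges of both pairs overlapped. Insr varied least between replicates, with a coefficient of variation of 4.01% to 4.96% per group, and Igf1 most in RD and HFD-O304 islets, with 41.9% and 44.9%.

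**Figure D2:**
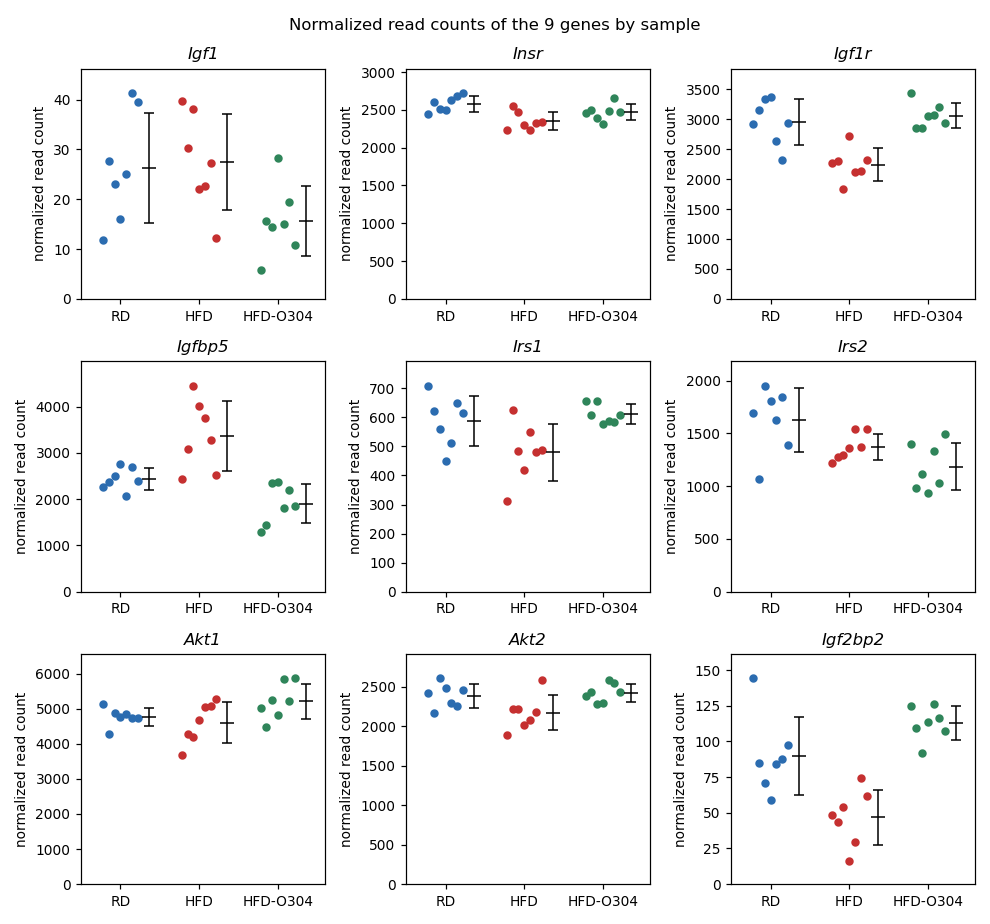
Normalized read counts (y axis, from 0) of the 9 genes in each RD, HFD and HFD-O304 sample (points, n = 7 per group), with the group mean and SD beside them. All HFD-O304 samples lie above all HFD samples for Igf1r (2842 against 2724 at the nearest) and Igf2bp2 (92.2 against 74.3), and below them for Igfbp5 (2362 against 2429).

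Igf1 encodes a growth factor that is made mainly by the liver and, within tissues, by stromal and immune cells. The gene lies at chr10:87858265-87937042 on the plus strand (GRCm38, GENCODE M21). Normalized counts were low, at 11.7 to 41.3 in RD (median 25.1), 12.2 to 39.7 in HFD (median 27.3) and 5.77 to 28.2 in HFD-O304 islets (median 15.1). The 3 groups overlapped, with most HFD-O304 samples in the lower part of the RD and HFD ranges. The log2 fold change of HFD-O304 vs HFD was -0.79 (95% CI -1.42 to -0.16, adjusted p = 0.0764) and that of HFD-O304 vs RD was -0.75 (95% CI -1.38 to -0.11, adjusted p = 0.237). HFD vs RD gave 0.04 (95% CI -0.56 to 0.64, adjusted p = 0.965), with 0.70 in replicates 1 to 4 and -0.78 in replicates 5 to 7. Neither difference of HFD-O304 islets passed the threshold after adjustment over all genes, and without HFD-O304 replicate 1, the lowest sample, they were -0.63 (adjusted p = 0.164) and -0.58 (adjusted p = 0.409).

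Insr encodes the insulin receptor and lies at chr8:3122061-3279617 on the minus strand. Normalized counts were 2439 to 2719 in RD (median 2599.7), 2234 to 2545 in HFD (median 2322) and 2308 to 2658 in HFD-O304 islets (median 2467). HFD samples lay toward the lower end, and the 3 ranges overlapped. Insr differed by -0.14 on the log2 scale in HFD vs RD islets (95% CI -0.24 to -0.04, adjusted p = 0.0710) and by 0.08 in HFD-O304 vs HFD islets (95% CI -0.02 to 0.17, adjusted p = 0.317). HFD-O304 vs RD gave -0.06 (95% CI -0.16 to 0.03, adjusted p = 0.599). The value of HFD-O304 vs HFD was 0.07 without HFD-O304 replicate 1 (adjusted p = 0.411). None passed the threshold, and the 3 intervals for Insr span -0.24 to 0.17.

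Igf1r encodes the type 1 IGF receptor, the main receptor of IGF1, and lies at chr7:67952827-68233668 on the plus strand. RefSeq promoter windows of the 250 bases before RefSeq's gene start (GRCm38.p6) matched 8 of the 9 genes, without Insr. For Igf1r, Irs1 and Irs2 that start lies upstream of the GENCODE gene bounds given here. Those of Igf1r and Igf2bp2 are shown because these genes were called in both HFD vs RD and HFD-O304 vs HFD islets, the first at chr7:67952007-67952256 on the plus strand and the second at chr16:22163300-22163549 on the minus strand. Capitals mark the GC box GGGCGG or its reverse complement CCGCCC.
Igf1r: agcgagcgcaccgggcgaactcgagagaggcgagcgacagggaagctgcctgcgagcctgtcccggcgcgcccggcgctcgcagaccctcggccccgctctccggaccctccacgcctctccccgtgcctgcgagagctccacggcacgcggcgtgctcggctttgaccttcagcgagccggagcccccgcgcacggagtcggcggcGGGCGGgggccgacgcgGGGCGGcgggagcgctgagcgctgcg
Igf2bp2: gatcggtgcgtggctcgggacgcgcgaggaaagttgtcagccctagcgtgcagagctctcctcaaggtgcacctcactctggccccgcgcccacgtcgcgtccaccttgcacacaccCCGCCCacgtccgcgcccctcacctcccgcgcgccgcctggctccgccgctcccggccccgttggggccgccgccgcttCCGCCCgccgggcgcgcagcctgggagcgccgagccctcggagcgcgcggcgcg
Both windows hold 2 GC boxes, a motif found in 32.7% of 32851 such mouse windows, and their GC content of 77.6% and 77.2% compares with a median of 52.4% over all windows. Neither holds the FOXO core GTAAACA or its reverse complement TGTTTAC, which occurs in 3.17% of all windows.

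Normalized counts of Igf1r were 2324 to 3363 in RD (median 2928), 1838 to 2724 in HFD (median 2259) and 2842 to 3430.2 in HFD-O304 islets (median 3051). Every HFD-O304 sample was above every HFD sample, whereas RD and HFD overlapped through the lowest RD samples and the highest HFD sample. Igf1r was 0.76 times as high in HFD as in RD islets (log2 fold change -0.40, SE 0.079, adjusted p = 0.00180) and 1.37 times as high in HFD-O304 as in HFD islets (log2 fold change 0.45, SE 0.079, adjusted p = 0.000119). Of all genes tested, 2.56% were likewise higher in HFD-O304 than in HFD islets with no overlap. Igf1r in HFD-O304 vs RD islets differed by 0.05 (95% CI -0.11 to 0.21, adjusted p = 0.848). Without HFD-O304 replicate 1, the highest sample, the log2 fold change of HFD-O304 vs HFD was 0.42 (adjusted p = 0.000629). Within library sets it was 0.41 in replicates 1 to 4 (adjusted p = 0.0132) and 0.50 in replicates 5 to 7 (adjusted p = 0.000633), while HFD vs RD gave -0.49 (adjusted p = 0.01002) and -0.27 (adjusted p = 0.0582) there.

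Markers of α-cells moved in the same direction as Igf1r. All 4 α-cell markers, Gcg and Irx2 among them, were called in both comparisons with HFD, where HFD islets had the lower level, and none was at 0 in any sample. In HFD-O304 vs RD islets edgeR called 0 of these 4, 1 had an unadjusted p under 0.05, and DESeq2 called 1. Their summed normalized count was 785586 to 1004660 in RD, 290847 to 610282 in HFD and 820891 to 1106710 in HFD-O304 islets. Gcg made up nearly all of it (mean 978571 of 981401 in HFD-O304 islets). Markers of δ- and PP-cells moved the same way, with 2 of 4 called lower in HFD than in RD and 3 of 4 called higher in HFD-O304 than in HFD islets. Of all genes tested, 1.54% were called lower and 5.08% higher in these comparisons. The part of these cell types in the Igf1r result was not tested. In RNA of whole islets, fewer cells of a type and less RNA per cell cannot be told apart.

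**Figure D3:**
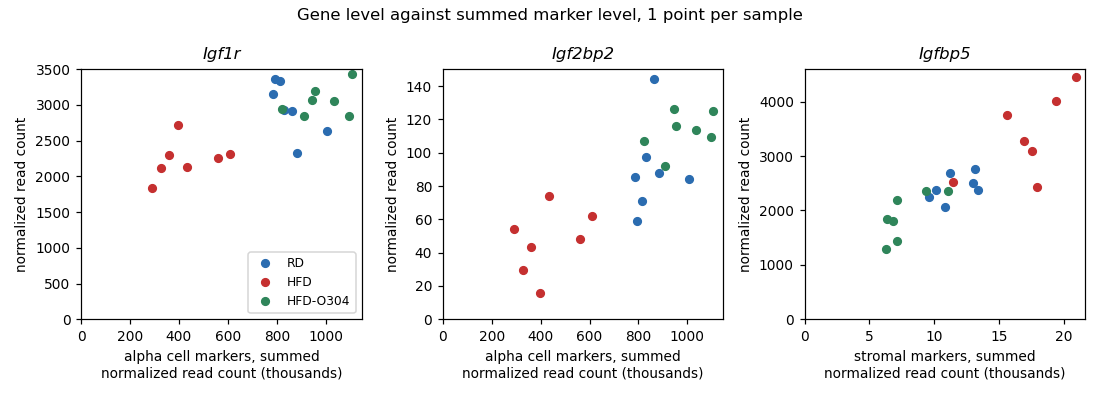
Normalized read count of Igf1r and Igf2bp2 against the summed normalized count of 4 α-cell markers, and of Igfbp5 against that of 9 stromal markers (x axes, scaled as labelled), with 1 point per sample. Gcg makes up nearly all of the α-cell sum and Rgs5 most of the stromal sum. HFD samples lie at 290847 to 610282 α-cell marker counts, apart from RD and HFD-O304 samples, and HFD-O304 samples at 6261 to 11035 stromal marker counts, below all HFD samples.

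The count ratio of Igf1r to Insr within each library does not depend on how libraries are scaled to each other. Its log2 value was -0.20 to 0.43 in RD (median 0.26), -0.43 to 0.24 in HFD (median -0.08) and 0.18 to 0.48 in HFD-O304 islets (median 0.27). All but 1 of the HFD-O304 samples were above the highest HFD sample. The mean ratio was 0.38 higher on the log2 scale in HFD-O304 than in HFD islets (exact two-sided permutation test over all splits of 7 against 7, p = 0.00117, adjusted p = 0.0105 over 9 ratio tests). HFD was 0.26 below RD (exact p = 0.0466, adjusted p = 0.105) and HFD-O304 was 0.12 above RD (exact p = 0.229, adjusted p = 0.312), neither past the threshold of 0.05. Without HFD-O304 replicate 1 the difference between HFD-O304 and HFD was 0.35 (exact permutation test, adjusted p = 0.0157).

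Igfbp5 encodes a secreted protein that binds IGFs and matrix, and lies at chr1:72857932-72874884 on the minus strand. Normalized counts were 2064 to 2759 in RD (median 2386), 2429 to 4452 in HFD (median 3276) and 1293 to 2362 in HFD-O304 islets (median 1849.5). HFD samples were the highest and the most spread, every HFD-O304 sample was below every HFD sample, and RD overlapped with both. Igfbp5 was 0.57 times as high in HFD-O304 as in HFD islets (log2 fold change -0.82, SE 0.13, adjusted p = 5.15e-05). Of all genes tested, 3.61% were lower in HFD-O304 than in HFD islets with no overlap. HFD vs RD gave 0.46 (95% CI 0.19 to 0.73, adjusted p = 0.0280), which passed the threshold without HFD replicate 1 (adjusted p = 0.00965) or HFD replicate 7 (adjusted p = 0.00888), the 2 lowest HFD samples, and by DESeq2 (adjusted p = 0.00768). It missed in 19 of the 21 fits that left out 1 sample (highest adjusted p = 0.0796). It also missed in replicates 1 to 4 (adjusted p = 0.178) and in replicates 5 to 7 (adjusted p = 0.0609). HFD-O304 vs RD gave -0.35 (95% CI -0.63 to -0.08, adjusted p = 0.180). Without HFD-O304 replicate 1, the lowest sample, HFD-O304 vs HFD was -0.75 (adjusted p = 0.000134), and within library sets it was -0.91 (adjusted p = 0.00342) and -0.70 (adjusted p = 0.00146).

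Markers of fibroblasts, stellate cells and pericytes mostly moved in the same direction as Igfbp5 in the comparisons with HFD. Of 9 such markers, 2 were called higher in HFD than in RD islets and 5 lower in HFD-O304 than in HFD islets. In HFD-O304 vs RD islets 2 were called lower. The shares of all genes called in these directions were 2.00%, 6.79% and 0.903%. Log2 fold changes were above 0 for all 9 in HFD vs RD islets and below 0 for 8 in HFD-O304 vs HFD islets. In HFD-O304 vs RD islets 5 were below 0 and 4 above it. The pericyte marker Rgs5 and the smooth muscle actin gene Acta2 were called in all 3 comparisons. Without HFD-O304 replicate 1 the calls went to 4 in HFD-O304 vs HFD islets, where Col1a2 was lost, and to 1 in HFD-O304 vs RD islets, where Acta2 was lost. The summed normalized count of the 9 markers was 9579 to 13418 in RD, 11442 to 20921 in HFD and 6261 to 11035 in HFD-O304 islets, and only Pdgfra was at 0 in any sample. Rgs5 made up most of this sum (mean 12609 of 17116 in HFD islets). Endothelial markers were called lower in HFD-O304 than in HFD islets for 2 of 8, against 6.79% of all genes. All 8 had a log2 fold change below 0, 7 had an unadjusted p under 0.05 in edgeR, and DESeq2 called 5. Their sums overlapped at 18619.7 to 27298 in HFD and 15760.5 to 23400.2 in HFD-O304 islets. In HFD-O304 vs RD islets edgeR called 1 of 8, Pecam1, lower (adjusted p = 0.00693), and DESeq2 called 2. The edgeR call of Pecam1 was lost without HFD-O304 replicate 1. The part of these cell types in the Igfbp5 result was not tested.

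Irs1 and Irs2 encode the insulin receptor substrates, adaptors that dock PI3-kinase once phosphorylated. Irs1 lies at chr1:82233101-82291416 and Irs2 at chr8:10984681-11008458, both on the minus strand. Their promoter windows, at chr1:82291440-82291689 and chr8:11008930-11009179 on the minus strand, are shown because the balance of these genes differed between groups. Capitals mark GC boxes and TGTTTTG, the reverse complement of the insulin response core CAAAACA.
Irs1: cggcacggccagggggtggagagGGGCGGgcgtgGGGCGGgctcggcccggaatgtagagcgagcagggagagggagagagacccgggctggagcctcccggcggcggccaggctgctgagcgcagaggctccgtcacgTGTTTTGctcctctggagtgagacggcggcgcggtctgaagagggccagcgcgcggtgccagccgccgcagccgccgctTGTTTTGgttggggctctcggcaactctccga
Irs2: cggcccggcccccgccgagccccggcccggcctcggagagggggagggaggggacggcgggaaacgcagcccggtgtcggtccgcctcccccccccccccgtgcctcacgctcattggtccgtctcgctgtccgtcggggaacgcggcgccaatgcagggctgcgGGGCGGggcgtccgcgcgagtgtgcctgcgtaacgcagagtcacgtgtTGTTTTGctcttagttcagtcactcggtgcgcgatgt
Irs1 holds 2 insulin response cores and Irs2 holds 1, the nearest at 32 and 37 bases before the start, and 5.56% of all windows hold at least 1. No window of the other 6 matched genes holds this core, and the window of Akt1 that holds a FOXO core, 161 bases before the start, is the only match to that motif among 12 windows. The insulin response core, the GC box and the TATA box TATAAA, which has no match in the 12 windows against 12.4% of all windows, were chosen after the FOXO core had been searched.

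Normalized counts of Irs1 were 452 to 709 in RD (median 616), 313 to 626 in HFD (median 483) and 577 to 658 in HFD-O304 islets (median 609). All HFD samples other than replicate 2 were below the lowest HFD-O304 sample, and HFD-O304 samples varied least. Irs1 in HFD-O304 vs HFD islets differed by 0.35 (95% CI 0.13 to 0.57, adjusted p = 0.0224), which passed the threshold without HFD replicate 2 (adjusted p = 0.00392) and was 0.33 without HFD-O304 replicate 1 (adjusted p = 0.0489). It missed the threshold in 20 of the 21 fits that left out 1 sample (highest adjusted p = 0.0564). HFD vs RD gave -0.29 (95% CI -0.52 to -0.07, adjusted p = 0.103) and HFD-O304 vs RD gave 0.06 (95% CI -0.16 to 0.28, adjusted p = 0.880).

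Irs2 followed another order. Its normalized counts were 1072 to 1950.0 in RD (median 1693), 1218 to 1544 in HFD (median 1362) and 936 to 1492 in HFD-O304 islets (median 1117). Group medians descended from RD to HFD to HFD-O304, and the ranges overlapped throughout, RD replicate 2 being the lowest RD sample. HFD-O304 vs RD gave -0.45 (95% CI -0.68 to -0.22, adjusted p = 0.0215), the value nearest to the threshold for any of the 9 genes in that comparison. It passed without RD replicate 2 (adjusted p = 0.00372) and by DESeq2 (adjusted p = 0.00452), and without HFD-O304 replicate 1 it was -0.50 (adjusted p = 0.0191). Of the 21 fits that left out 1 sample, 20 missed the threshold (highest adjusted p = 0.0845). Irs2 in HFD vs RD islets differed by -0.25 (95% CI -0.48 to -0.02, adjusted p = 0.194) and in HFD-O304 vs HFD islets by -0.20 (95% CI -0.43 to 0.03, adjusted p = 0.237), or by -0.25 without HFD-O304 replicate 1 (adjusted p = 0.147).

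Within libraries, the balance of both substrates differed between HFD-O304 and HFD islets. The log2 count ratio of Irs2 to Irs1 was 0.78 to 2.00 in RD (median 1.51), 1.02 to 1.96 in HFD (median 1.51) and 0.69 to 1.29 in HFD-O304 islets (median 0.82). HFD-O304 samples clustered at the lower end, 4 of them below the lowest HFD sample. At the group means Irs2 counts were 2.74 times those of Irs1 in RD, 2.90 times in HFD and 1.91 times in HFD-O304 islets. HFD-O304 was 0.60 below HFD on the log2 scale (exact two-sided permutation test, p = 0.00291, adjusted p = 0.0131), and 0.63 below without HFD-O304 replicate 1 (exact permutation test, adjusted p = 0.0210). HFD-O304 vs RD, with a difference of -0.52 (exact p = 0.0175, adjusted p = 0.0524), missed the threshold and passed it when RD replicate 2, RD replicate 7 or HFD-O304 replicate 7 was left out (lowest adjusted p = 0.0122 in the exact permutation test). It missed in 11 of the 14 tests that left out 1 sample (highest adjusted p = 0.103 in the exact permutation test). HFD vs RD gave 0.08 (exact p = 0.681, adjusted p = 0.766).

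**Figure D4:**
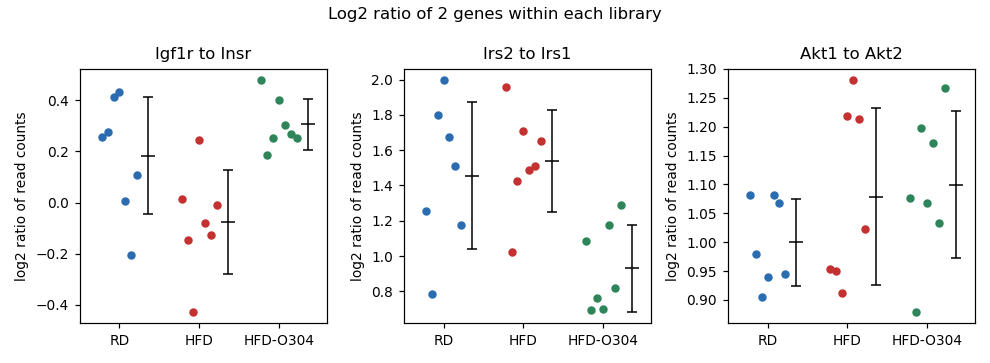
Log2 ratio of the read counts of 2 genes within each library (y axis, not starting at 0), with 1 point per sample (n = 7 per group) and the group mean and SD. The Igf1r to Insr ratio is higher in HFD-O304 than in HFD islets (mean 0.31 against -0.08), the Irs2 to Irs1 ratio is lower (0.93 against 1.54), and Akt1 to Akt2 overlaps between groups.

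Akt1 and Akt2 encode serine/threonine kinases at the centre of the pathway, with Akt2 known as the form most tied to glucose metabolism. Akt1 lies at chr12:112653821-112674884 on the minus strand, where Mir6939 overlaps it on the same strand, and Akt2 at chr7:27591552-27640826 on the plus strand. Normalized counts of Akt1 were 4290.4 to 5139 in RD (median 4774), 3668 to 5272 in HFD (median 4682) and 4480.2 to 5859.9 in HFD-O304 islets (median 5209). Those of Akt2 were 2175 to 2608 in RD (median 2427), 1894 to 2594 in HFD (median 2183) and 2287 to 2588 in HFD-O304 islets (median 2435). Both genes overlapped between all groups, and HFD replicate 1 was the lowest HFD sample for Akt1, Akt2, Irs1 and Irs2 alike.

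No comparison of Akt1 or Akt2 passed the threshold. The largest differences were those of HFD-O304 vs HFD islets, at 0.19 for Akt1 (95% CI 0.03 to 0.34, adjusted p = 0.0850) and 0.16 for Akt2 (95% CI 0.04 to 0.29, adjusted p = 0.0585). Akt2 passed without HFD replicate 7 (adjusted p = 0.00656), the highest HFD sample. It missed the threshold in 20 of the 21 fits that left out 1 sample (highest adjusted p = 0.140). The HFD-O304 vs HFD values were 0.19 for Akt1 (adjusted p = 0.111) and 0.16 for Akt2 (adjusted p = 0.0867) without HFD-O304 replicate 1. HFD vs RD gave -0.06 for Akt1 (95% CI -0.21 to 0.10, adjusted p = 0.751) and -0.14 for Akt2 (95% CI -0.26 to -0.02, adjusted p = 0.171). The 3 log2 ratios of Akt1 to Akt2, at group means of 1.0, 1.08 and 1.10 in RD, HFD and HFD-O304 islets, did not differ past the threshold in the exact permutation test (lowest adjusted p = 0.187).

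Igf2bp2 encodes a protein that binds IGF2 and other mRNAs, and variants near its human counterpart are associated with type 2 diabetes. The gene lies at chr16:22059009-22163299 on the minus strand. Normalized counts were 58.7 to 144 in RD (median 85.2), 16.01 to 74.3 in HFD (median 48.2) and 92.2 to 126 in HFD-O304 islets (median 113.8). All HFD-O304 samples were above all HFD samples, RD overlapped with both, and RD replicate 1 at 144 was the highest of all. Igf2bp2 was 0.52 times as high in HFD as in RD islets (log2 fold change -0.95, SE 0.22, adjusted p = 0.00718) and 2.43 times as high in HFD-O304 as in HFD islets (log2 fold change 1.28, SE 0.22, adjusted p = 9.11e-05). HFD-O304 vs RD gave 0.33 (95% CI -0.09 to 0.76, adjusted p = 0.502).

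The call of Igf2bp2 in HFD vs RD islets depended on which samples were included. It was lost when RD replicate 1, 5, 6 or 7 or HFD replicate 1, 2, 3, 4 or 5 was left out (adjusted p = 0.0106 to 0.0234), with a log2 fold change of -0.79 to -1.09 over all samples left out in turn. In HFD-O304 vs HFD islets the value was 1.25 without HFD-O304 replicate 1 (adjusted p = 0.000274), and 1.45 (adjusted p = 0.00355) and 1.10 (adjusted p = 0.00601) in the library sets. The α-, δ- and PP-cell markers given with Igf1r moved in the same direction. Sums of the δ- and PP-cell markers were 183159 to 293977 in RD, 116770.0 to 233914 in HFD and 179901 to 314592 in HFD-O304 islets, and none was at 0. Sst and Ppy made up nearly all of these sums (means 117158 and 136188 of 257863 in HFD-O304 islets). The part of these cell types in the Igf2bp2 result was not tested.

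The wider pathway was described with a list of 87 genes, the 9 genes included, of which 85 were tested and Igfbp1 and Igfbp2 were not. The other 76 genes tested gave 1 higher and 2 lower in HFD vs RD islets (3.95%, against 3.54% of all genes), 0 higher and 1 lower in HFD-O304 vs RD islets (1.32%, against 1.31%), and 9 higher and 8 lower in HFD-O304 vs HFD islets (22.4%, against 11.9%). Their median log2 fold change was 0.002, 0.05 and 0.06 in these comparisons. The genes called in HFD-O304 vs HFD islets lay on both sides of 0 and are given by role. Without HFD-O304 replicate 1 the list calls, the 9 genes included, went from 20 to 19 in that comparison and from 1 to 0 in HFD-O304 vs RD islets.

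Among ligands, Igf2 had few counts, at 3.78 to 13.04 in HFD and 5.22 to 27.6 in HFD-O304 islets, and was higher in HFD-O304 islets although the ranges overlapped (log2 fold change 1.30, SE 0.33, adjusted p = 0.00546). Ins1 and Ins2, the insulin genes of the mouse, were lower in HFD-O304 than in HFD islets by log2 fold changes of -0.20 (adjusted p = 0.00749) and -0.23 (adjusted p = 0.00149). The call of Ins1 was lost without HFD-O304 replicate 1 (adjusted p = 0.0178). Read pairs that fit both insulin genes are not in these counts, which makes their division uncertain. Neither Insrr nor Igf2r, the remaining receptors on the list, was called in any comparison by edgeR or DESeq2, although both had an unadjusted p under 0.05 in HFD-O304 vs HFD islets and 1 of them when HFD-O304 was compared with RD islets.

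Of the IGF binding proteins and their proteases, 4 of 8 tested were called in HFD-O304 vs HFD islets and all 4 were lower, Igfbp5 among them, against 6.79% of all genes called lower. Igfals, which holds IGFs in a complex in plasma, was not called at 0.36 (adjusted p = 0.0128), and DESeq2 called it beside the same 4. Of the 9 stromal markers given with Igfbp5, 8 had a log2 fold change below 0 in the same comparison. The part of stromal cells in these results was not tested. Igfbp3, the main carrier of IGFs in plasma, ranged from 3099 to 4858 normalized counts in HFD and from 2073 to 2669.7 in HFD-O304 islets, with no overlap (log2 fold change -0.67, SE 0.094, adjusted p = 6.56e-06). Pappa2, a protease that cleaves Igfbp3 and Igfbp5, ranged from 31625 to 121776 in HFD and from 22795 to 33426 in HFD-O304 islets (log2 fold change -1.35, SE 0.19, adjusted p = 8.84e-06). The spread of Pappa2 in HFD islets was wide, and its lowest HFD sample lay within the HFD-O304 range. In HFD vs RD islets edgeR called 0 of these 8 genes, 5 had an unadjusted p under 0.05 and DESeq2 called 4, Igfbp3, Igfbp5, Igfbp7 and Pappa2. By edgeR, Igfbp3 gave 0.37 (adjusted p = 0.0127) and Pappa2 0.77 (adjusted p = 0.0105).

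Of the receptor substrates and adaptors, 3 of 13 were called in HFD-O304 vs HFD islets, all higher, against 5.08% of all genes called higher. Grb10, an adaptor that binds the activated insulin and IGF1 receptors and restrains them, gave the lowest adjusted p of the list in both comparisons with HFD. Its normalized counts were 1871 to 2108 in RD, 1267 to 1660.3 in HFD and 1910.2 to 2356 in HFD-O304 islets. HFD samples were below all others without overlap, with a log2 fold change of -0.48 in HFD vs RD (SE 0.056, adjusted p = 8.28e-06) and 0.58 in HFD-O304 vs HFD islets (SE 0.056, adjusted p = 2.83e-08). Of all genes tested, 0.687% were lower in HFD than in RD islets with no overlap. Gab1, a docking protein for PI3-kinase and SHP2, was higher in HFD-O304 than in HFD islets by 0.60 (SE 0.12, adjusted p = 0.000578), also without overlap.

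Downstream of the receptors, edgeR called none of the 6 PI3-kinase subunits in any comparison, with 1, 1 and 3 at an unadjusted p under 0.05 in HFD vs RD, HFD-O304 vs RD and HFD-O304 vs HFD islets, and DESeq2 called only Pik3cd, in the last of these. Rictor, a subunit of the complex that phosphorylates AKT, was higher in HFD-O304 than in HFD islets by 0.38 (SE 0.086, adjusted p = 0.00194). Phlpp2, a phosphatase that acts on AKT, was higher by 0.34 (SE 0.059, adjusted p = 0.000107). Socs3, an inhibitor of cytokine and insulin receptor signalling, was the only list gene called in HFD-O304 vs RD islets, at 225 to 358 normalized counts against 328 to 440.2 (log2 fold change -0.48, SE 0.11, adjusted p = 0.00867). That call was lost in 16 of the 21 fits that left out 1 sample, among them that without HFD-O304 replicate 1 (adjusted p = 0.0198), and in HFD-O304 vs HFD islets Socs3 gave -0.59 (SE 0.11, adjusted p = 0.000164).

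Tsc1 and Tbc1d4, both acting where AKT signals to mTORC1 and to glucose transporter traffic, moved in opposite directions. Tsc1 was lower in HFD than in RD islets by -0.29 (SE 0.058, adjusted p = 0.00192) and higher in HFD-O304 than in HFD islets by 0.26 (SE 0.058, adjusted p = 0.00170). Tbc1d4, an AKT substrate, was higher in HFD than in RD islets by 0.35 (SE 0.082, adjusted p = 0.00782) and lower in HFD-O304 than in HFD islets by -0.58 (SE 0.083, adjusted p = 1.04e-05). The 4 Foxo genes, transcription factors that AKT keeps out of the nucleus, were not called in any comparison by edgeR, with 0, 2 and 3 at an unadjusted p under 0.05 in the same order, and DESeq2 called only Foxo6, in HFD-O304 vs HFD islets. Among the remaining calls of HFD-O304 vs HFD islets, Sos2, Igfbp7 and Map2k1 had log2 fold changes between -0.20 and 0.26.

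**Figure D5:**
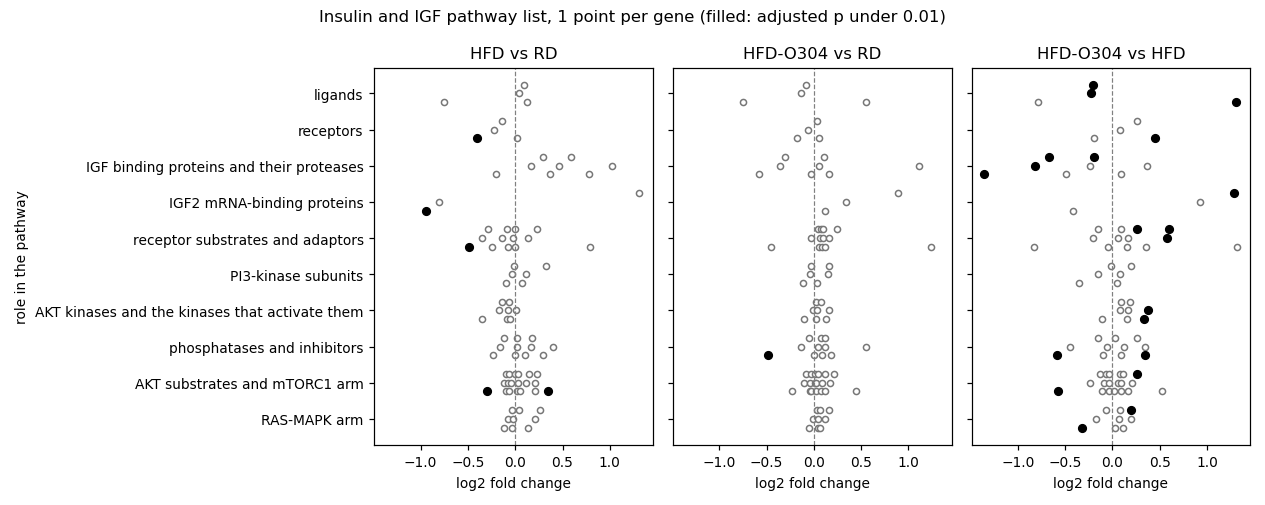
Log2 fold change (x axis) of the 85 tested genes of the pathway list, 1 point per gene, arranged by role (y axis) in the 3 comparisons (panels), filled where the adjusted p was under 0.01. In HFD-O304 vs HFD 11 filled points lie right of 0 and 9 left of it, and the 4 filled points among binding proteins and proteases are all left of 0.

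Genes with patterns most like each of the 9 were ranked by Pearson r of log2(normalized count + 1) over the 21 samples, among 13215 other genes with a mean of at least 50 (13216 for Igf1). The samples share diet groups and library sets, so r is given as a description, with r within groups in brackets after it. Col15a1 at 0.93 (0.82), Daam2 at 0.93 (0.80) and Acta2 at 0.92 (0.80) were most like Igfbp5. Kcnk3 at 0.92 (0.77), Lrch3 at 0.92 (0.81) and Dock9 at 0.92 (0.76) were most like Igf2bp2. For Igf1r they were Acly, the ATP citrate lyase of lipid synthesis, at 0.87 (0.85), Hfe at 0.85 (0.57) and Fbxl17 at 0.84 (0.51), and of these r changed least within groups for Acly.

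For Irs1 the nearest genes were Flcn at 0.92 (0.88), Vegfa at 0.87 (0.83) and Ehmt1 at 0.87 (0.80), and for Irs2 they were Relt at 0.84 (0.80), Ctnnbip1 at 0.82 (0.73) and Arl4d at 0.82 (0.73). Akt1 was nearest to Ddr1 at 0.95 (0.93), Pnpla2 at 0.93 (0.91) and Plxnb2 at 0.92 (0.90), and Akt2 to Rph3al at 0.88 (0.82), Abca1 at 0.87 (0.81) and Nek5 at 0.85 (0.76). Insr was nearest to Fgd4 at 0.87 (0.74), Fnbp1 at 0.86 (0.75) and 9030622O22Rik at 0.84 (0.79), and Igf1 to Myof at 0.85 (0.80), Abcg2 at 0.84 (0.79) and Ahnak at 0.83 (0.77). None of the 9 genes was among the 3 nearest of another. Between pairs of the 9, the highest r within groups was 0.65 for Irs2 with Akt1, followed by 0.54 for Akt1 with Akt2, and the lowest was -0.55 for Igf1 with Irs2.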

How the data were processed

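RNA was sequenced from 21 islet samples, 7 each of RD, HFD and HFD-O304 mice, with library kits and 50-base read pairs as stated in the methods. STAR was used by the authors to align them to GRCm38 (version not given in the sources used here), and the raw gene counts it produced were deposited. Of the 3 count columns, unstranded and by strand, column 4 was used because it held 28.8 to 36.3 times the count of the opposite strand in every sample. STAR counts no pair that fits more than 1 locus or gene, and 18.5% to 24.9% of the pairs in column 4 were not on a gene and were left out. Samples were grouped by title, except HFD replicate 3, which was grouped by its diet tag because its title reads HF. Counts of 2 replicates of a group differed by a chi-square of at least 7.35 per gene, so none was a repeat of another.

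Genes with at least 10 reads over all samples were tested in R 4.3.3 with edgeR 4.0.16 (TMM, quasi-likelihood fit of all 3 groups, no covariates) and called at a Benjamini-Hochberg adjusted p under 0.01. Where no test is named, an adjusted p is edgeR's. Normalized read counts are scaled by the size factors of DESeq2, and levels per kb divide them by the summed exon length of GENCODE M21. Ratios of 2 genes were compared by exact permutation over all splits of 7 against 7, for which the smallest p is 0.000583. The edgeR step was tested on simulated data. Named list genes were those called in any comparison, or the 12 of largest log2 fold change where more than 12 were called, and Ins1, Ins2 and the genes of the last calls were named beyond this rule. The values of some list genes are not reported here. The members, the lists and the tests were chosen with earlier results of these data known. Alternatives covered the test (DESeq2 1.42.0), normalization, filter, strand, samples, replicate block, library set and threshold. Promoters came from RefSeq (GRCm38.p6). Tables used pandas 2.3.3 and numpy 2.4.6 in Python 3.11.15, and figures used matplotlib 3.10.9. Each p measures the spread between pools of mice. ChIP-seq was not analysed here.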

Additional observations from a re-analysis of the deposited data

How the results depend on the processing

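The calls of HFD-O304 vs HFD islets were 2 to 4 of the 9 genes under all alternatives, and Igfbp5 and Igf2bp2 passed under each. Igf1r missed the threshold in replicates 1 to 4 (adjusted p = 0.0132). The list calls of that comparison went from 20 to 10 in replicates 1 to 4, 12 in replicates 5 to 7 and 31 at an adjusted p under 0.05.

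In HFD vs RD islets the calls among the 9 genes went from 2 to 1 with only those groups in the fit and to 0 in either library set, and were 1 to 3 with 1 sample left out. List calls went from 5 to 12 by DESeq2 and at an adjusted p under 0.05, 8 with no filter or with library set as a covariate, 3 with only those groups or in replicates 1 to 4, 2 in replicates 5 to 7, and 3 to 9 with 1 sample left out (3 without RD replicate 1, 5 or 7 or HFD replicate 3, and 9 without HFD replicate 7). HFD-O304 vs RD had 1 of the 9 genes, Irs2, called by DESeq2 and at 0.05, and 0 to 1 with 1 sample left out. List calls went from 1 to 3 by DESeq2 and at 0.05, 2 with only those groups, 0 with unstranded counts or in either library set, and 0 to 1 with 1 sample left out. DESeq2 called 1758 genes in all for HFD vs RD and 727 for HFD-O304 vs RD, against 963 and 356 by edgeR.

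Directions of values that missed the threshold turned in a few cases. In HFD vs RD islets Igf1 was -0.78 and Akt1 0.10 in replicates 5 to 7, and with 1 sample left out Igf1 ranged from -0.082 to 0.18 and Akt1 from -0.092 to 9.4e-05. In HFD-O304 vs RD islets Igf1r was -0.079 and Akt2 -0.056 in replicates 1 to 4. With 1 sample left out, the log2 ratio of Irs2 to Irs1 ranged from -0.031 to 0.17 in HFD vs RD and from -0.64 to -0.43 for HFD-O304 vs RD, that of Igf1r to Insr from -0.32 to -0.20 in HFD vs RD islets (past 0.05 without RD replicate 6 or HFD replicate 4), and that of Akt1 to Akt2 from -0.0074 to 0.057 in HFD-O304 vs HFD islets. The causes were not tested.

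Replicate numbers are shared between groups, and the main fit did not take them as a pairing. Same-numbered samples deviated together (correlation over 0.1) in 4 of 7 pairs in HFD vs RD islets. In HFD-O304 vs HFD islets 5 pairs did so, and in HFD-O304 vs RD islets 6. Samples of unlike number were not correlated, so these counts cannot decide whether the numbers pair the samples. With the replicate number as a block, HFD vs RD gave 9 list calls and 1577 genes in all, and Igfbp5 passed (adjusted p = 0.00263), while HFD-O304 vs RD gave 1 call among the 9 genes (Irs2, adjusted p = 0.00945), 2 list calls and 543 genes in all. Under this block the HFD-O304 vs HFD ratios of Igf1r to Insr and of Irs2 to Irs1 had 1 sign in all 7 pairs, with differences of 0.38 and -0.60. Their p of 0.0156 is the smallest that 7 pairs allow (exact sign-flip test, adjusted p = 0.0703 for both), so missing the threshold says nothing about stability here. Igf1 and Igf2bp2 had the lowest counts of the 9 genes, so counting error weighs most on them.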

Other observations

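Each of the 9 genes was tested for a difference between the library sets in all 3 comparisons. An unadjusted p under 0.05 in edgeR was found for Igf1 and Akt1 in HFD vs RD and for Igf1r in HFD-O304 vs RD islets. No gene of the 9 passed after adjustment over all genes. Of all 27229 genes, 1862 had an unadjusted p under 0.05 in HFD vs RD, 1314 in HFD-O304 vs HFD and 1516 in HFD-O304 vs RD islets. The log2 fold change of Igf1 in HFD vs RD islets was 1.47 lower in replicates 5 to 7 than in replicates 1 to 4, a difference of -1.47 (SE 0.55, adjusted p = 0.695). That of Akt1 in HFD vs RD islets was 0.29 higher (SE 0.11, adjusted p = 0.704), and that of Igf1r in HFD-O304 vs RD islets was 0.30 higher (SE 0.14, adjusted p = 0.854).

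Of the marker lists not named with a gene, that of β-cells had 5 of 8 called in HFD-O304 vs HFD islets. Of these, 2 were higher (Slc2a2 and Ucn3) and 3 lower (Iapp, Ins1 and Ins2), against 5.08% and 6.79% of all genes. The call of Ins1 was lost without HFD-O304 replicate 1. The summed count of β-cell markers was 0.83 times as high in HFD-O304 as in HFD islets, with ranges apart. Nearly all of this sum was Ins2, Ins1 and Iapp (means 6588920, 2456030 and 1026870 of 1.016e+07 in HFD-O304 islets). Of the 8 β-cell markers, 4 had a log2 fold change above 0 and 4 below it in this comparison (median 0.09). Duct markers were called higher in HFD-O304 than in HFD islets for 3 of 5 (Krt19, Sox9 and Cftr, of which Sox9 was lost without HFD-O304 replicate 1) and macrophage markers for 1 of 8 (Csf1r), against 5.08% of all genes. The other duct and macrophage markers did not pass, with Krt7 at -0.20 (adjusted p = 0.123) and Lyz2, which DESeq2 called, at -0.68 (adjusted p = 0.0183), and 6 of 8 macrophage markers had a log2 fold change below 0. The summed count of duct markers was 0.89 times as high in HFD-O304 as in HFD islets, and that of macrophage markers 0.91 times, with overlapping ranges. Krt7 made up nearly all of the duct sum (mean 6816 of 7148 in HFD-O304 islets). Acinar markers were called in 0 of 8 in every comparison by edgeR and by DESeq2, with 1 of 8 at an unadjusted p under 0.05 in HFD-O304 vs RD islets and 0 of 8 in the other comparisons, and their sums overlapped between groups. No group of 7 samples held a sample of any of the 9 genes, or of the ratios, that stood far from the rest by Dixon's criterion (0 of 36 groups, where chance gives about 1.8).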
